A study of Mus musculus with 4 samples.

Results

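The 9 genes described here belong to the cadherin superfamily of calcium-dependent adhesion proteins. They are the cadherins Cdh1, Cdh3 and Cdh13, the giant atypical cadherins Fat1, Fat2, Fat4 and Dchs1, and the seven-pass cadherins Celsr1 and Celsr2. They were picked by gene symbol out of 25814 genes listed for each library. Fat2 was on the list because its RNA level had been seen to be lower in the Nfat5-deficient cells, so its difference between genotypes is given as a description with no test. The other 8 genes were added as relatives of the same superfamily.

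RNA was sequenced from keratinocytes (KCs), the cells that build the epidermis. They were prepared from tails of adult 129/sv mice and grown untreated in serum-free medium with a low calcium concentration. There were 4 libraries, 2 labelled Wildtype (WT) and 2 labelled Nfat5-Knockout (Nfat5-/-), from 2 independent experiments per genotype. Wildtype siblings of the Nfat5-/- mice served as controls, and the gene for the transcription factor NFAT5, which responds to osmotic stress, was disrupted in the whole animal, not in KCs alone. The tails were shipped on ice overnight before the cells were prepared, and the time each library's cells had spent in culture is not given in the sources used here. In bulk cultures of this kind, fewer cells of a type and less RNA per cell cannot be told apart.

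Classical cadherins hold neighbouring cells together at adherens junctions. Their extracellular repeats bind the same protein on the next cell in the presence of calcium, and their cytoplasmic tails bind catenins, which connect them to actin. E-cadherin (Cdh1) is made throughout the epidermis, and P-cadherin (Cdh3) is best known from the basal layer and the hair follicle. Fat and Dachsous proteins carry many more cadherin repeats and act in cell polarity and tissue growth, and Celsr proteins belong to the core of planar cell polarity, the system that aligns cells and hairs within the plane of an epithelium.

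The libraries held between 16219445 and 23494436 gene reads, and WT replicate 1 and Nfat5-/- replicate 2 were the shallower library of their group. Nfat5 itself, examined as a check of the labels, had 408 and 929 gene reads for WT and 715 and 770 under the Nfat5-/- label (log2 fold change 0.09, SE 0.26, edgeR adjusted p 0.913). Nfat5 reads thus overlapped between the genotypes, and since totals per gene do not show whether part of it is deleted, these reads are no check of the labels. Keratinocyte markers summed to between 11100 and 12900 RPKM (reads scaled by exon length and by the mapped reads of the library) per library, led by Krt14 and Krt5. Of 7 such markers tested, 0 passed an edgeR adjusted p of 0.05, and Krt15 was near background, with at most 18 gene reads in a library. At an unadjusted p under 0.05, 1 of them, Itga6, was lower under the Nfat5-/- label.

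Because relatives can share sequence, it was first examined whether reads of these genes could be mistaken for each other. The sequences shown are the stretches around the longest identical run in the coding parts of the tandem neighbours Cdh1 and Cdh3, and of Fat1 and Fat2, the Fat genes with the most reads. They were taken from GENCODE M21 transcripts (build GRCm38), are written 5′ to 3′ on the coding strand, and have the shared run in capitals. Cdh1 and Cdh3 are separated by 46053 bases on chromosome 8, and their stretches lie in exon 5 of each gene, at chr8:106653773-106653832 and chr8:106536825-106536884 on the plus strand. The Fat1 stretch lies in exon 4 of its transcript (chr8:45009836-45009895, plus strand) and the Fat2 stretch in exon 10 (chr11:55284602-55284661, minus strand).
Cdh1: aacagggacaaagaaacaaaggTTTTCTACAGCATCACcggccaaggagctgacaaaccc
Cdh3: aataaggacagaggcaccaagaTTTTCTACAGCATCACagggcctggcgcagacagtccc
Fat1: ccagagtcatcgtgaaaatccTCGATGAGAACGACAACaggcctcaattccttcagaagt
Fat2: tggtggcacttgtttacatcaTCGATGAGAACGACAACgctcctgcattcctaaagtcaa

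The shared run was 16 bases long between Cdh1 and Cdh3, in stretches identical at 45 of 60 positions, and 17 bases long between Fat1 and Fat2, in stretches identical at 36 of 60. Over all 36 pairs of the 9 genes, the longest identical coding run was 21 bases, shorter than a read of 59 bases. Of the windows of 59 bases in the transcripts of Cdh1, Cdh3, Cdh13, Fat2, Celsr1 and Celsr2, 0 occurred on either strand in an annotated transcript of another gene. The share was 2.73% for Fat1, 3.97% for Dchs1 and 8.22% for Fat4, each with genes annotated on the opposite strand at the same locus. In every library with exon reads for them, 100% of the exon reads of each of the 9 genes were placed at a single site. The strand setting of the counting is not stated, so reads from the opposite strand of Fat1, Fat4 and Dchs1 could be counted with them.

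The genes spanned a wide range of RNA levels. Cdh1 (ENSMUSG00000000303, chr8:106603351-106670246) was the highest in each library, with 243 and 211 RPKM for WT and 252 and 292 RPKM under the Nfat5-/- label. It made up 57.6% to 64.4% of the summed RPKM of the 9 genes. Its WT mean, 227 ± 22.1 RPKM (SD, n = 2), lay above that of 97.8% of the 12614 genes that passed the filter on low counts. Fat1 (ENSMUSG00000070047, chr8:44935447-45052257), which ties cell contacts to the actin skeleton, came next with 84.2 and 60.3 RPKM for WT and 64.5 and 83.2 RPKM under the Nfat5-/- label. Cdh3 (ENSMUSG00000061048, chr8:106510891-106557297) followed with 66.2 and 53.5 RPKM for WT and 54.3 and 66.5 RPKM under the Nfat5-/- label. The ranges of Fat1 and Cdh3 overlapped, although Fat1 was above Cdh3 in each of the 4 libraries.

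Celsr1 (ENSMUSG00000016028, chr15:85898929-86033777) was lower, at 13.1 and 9.89 RPKM for WT and 12.9 and 17.0 RPKM under the Nfat5-/- label. In WT, Fat2 (6.53 to 7.05 RPKM) and Celsr2 (3.76 to 6.95 RPKM) overlapped, although Fat2 was above Celsr2 in each of the 2 libraries. In the libraries labelled Nfat5-/- they did not overlap, and Celsr2 (3.60 to 5.13 RPKM) lay above Fat2 (2.79 to 2.88 RPKM). Cdh13 (ENSMUSG00000031841, chr8:118283733-119324921), called T-cadherin, is bound to the membrane by a lipid anchor, lacks a cytoplasmic tail and is a receptor for adiponectin. It was at 1.49 and 1.13 RPKM for WT and 0.867 and 0.899 RPKM under the Nfat5-/- label, below each of the 6 genes named so far.

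Fat4 (ENSMUSG00000046743, chr3:38886940-39011985) and Dchs1 (ENSMUSG00000036862, chr7:105752990-105787654), which encode a receptor and a ligand that bind each other between cells, were at the limit of detection. Fat4 had 1 and 3 gene reads for WT and 3 and 1 under the Nfat5-/- label, and only 3 of these 8 reads lay in exons. Dchs1 had 1 and 1 gene reads for WT and 2 and 0 under the Nfat5-/- label. A level of 3 reads corresponds to between 0.00773 and 0.0112 RPKM for Fat4 and between 0.0114 and 0.0165 RPKM for Dchs1. Neither passed the filter, and a difference between genotypes was not detectable at this depth.

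**Figure D1:**
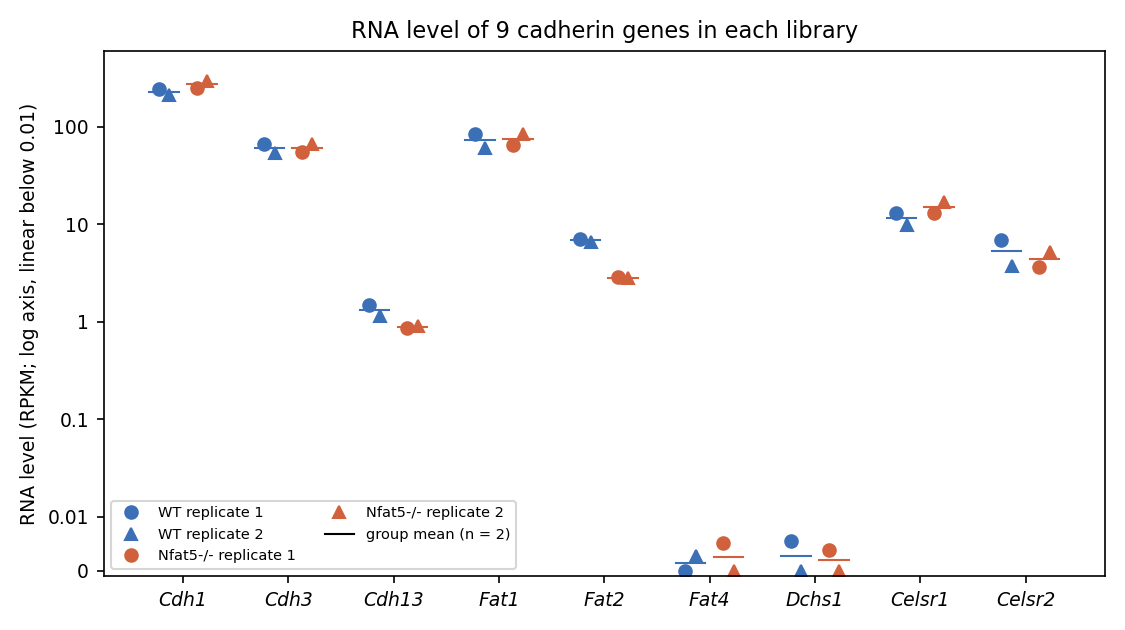
RNA level in RPKM (log axis, linear below 0.01) of the 9 cadherin genes in each of the 4 libraries, with circles for replicate 1, triangles for replicate 2 and lines for the group means. Cdh1 lies between 211 and 292 RPKM, Fat4 and Dchs1 lie below 0.01 RPKM, and the WT and Nfat5-/- libraries of Fat2 lie apart (6.53 to 7.05 against 2.79 to 2.88 RPKM).

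Fat2 (ENSMUSG00000055333, chr11:55250609-55336564, minus strand, 25 exons with a length of 14528 bases) has a fly relative that is needed for the collective migration of follicle cells. It was the gene of the 9 that set the groups furthest apart. It had 1719 and 2128 gene reads for WT and 1015 and 781 under the Nfat5-/- label, or 7.05 and 6.53 RPKM against 2.88 and 2.79 RPKM. Both libraries labelled Nfat5-/- were below both WT libraries, and replicates of a group differed by little. The mean was 6.79 ± 0.363 RPKM for WT and 2.83 ± 0.0642 RPKM under the Nfat5-/- label (mean ± SD, n = 2), so that 41.7% of the WT level was left. The fitted log2 fold change was -1.24 (SE 0.10), and 0.84% of the 12614 genes had a lower one. These are the values that brought Fat2 onto the list, and they carry no test here.

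The same lower level of Fat2 was seen in each class of its reads, which come from the same libraries and are no separate evidence. Reads across exon junctions numbered 180 and 209 for WT and 99 and 75 under the Nfat5-/- label. Reads in introns numbered 17 and 26 for WT and 8 and 8 under the Nfat5-/- label. Scaled to the library's gene reads, the intron reads were 1.05 and 1.2 CPM against 0.341 and 0.429 CPM. Over the 13 alternatives of processing and left-out libraries, the log2 fold change of Fat2 lay between -1.33 and -1.02. GENCODE lists 0 other genes that overlap Fat2.

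Of the other 8 genes, 6 passed the filter, and 0 of these 6 reached the threshold, an adjusted p of 0.05 by edgeR over 12614 genes. The background was 160 genes or 1.27%, made up of 119 genes (0.943%) that rose and 41 genes (0.325%) that fell under the Nfat5-/- label. At an unadjusted p under 0.05 there were 0 of the 6 by edgeR, against 14.6% of all genes, and 2 (Cdh1 and Celsr1) by DESeq2, against 7.53%. Without a filter on low counts edgeR gave 3 (Cdh1, Celsr1 and Celsr2), against 14.3% of all genes. Over the remaining alternatives that kept all 4 libraries, 0 or 1 of the 6 reached it, against 13.6% to 15.2% of all genes. For Cdh1 and Cdh13, 2 of the 6, the RPKM ranges of WT and Nfat5-/- lay apart, against 46.5% of all genes tested.

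Cdh1 was 227 ± 22.1 RPKM for WT and 272 ± 28.2 RPKM under the Nfat5-/- label (mean ± SD, n = 2). Both libraries with the Nfat5-/- label were above both WT libraries, but the lower of them exceeded the higher WT library by little (252 against 243 RPKM). The fit gave a log2 fold change of 0.28 (SE 0.13, 95% interval -0.02 to 0.58, edgeR adjusted p 0.365). This interval runs from 0.99-fold to 1.49-fold of the WT level. The change of Cdh1 was 0.15 without Nfat5-/- replicate 2 and 0.18 without WT replicate 2, and 0.40 and 0.39 without the respective other replicate.

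Cdh3 was 59.9 ± 9.02 RPKM for WT and 60.4 ± 8.65 RPKM under the Nfat5-/- label (mean ± SD, n = 2). The groups overlapped, and the log2 fold change was 0.04 (SE 0.15, 95% interval -0.31 to 0.39, edgeR adjusted p 0.935). Its sign turned when a library was left out, to -0.13 without Nfat5-/- replicate 2 and to -0.10 without WT replicate 2. Within a library, Cdh1 exceeded Cdh3 by 3.66-fold and 3.95-fold for WT and by 4.64-fold and 4.38-fold under the Nfat5-/- label.

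Cdh13 was 1.31 ± 0.255 RPKM for WT and 0.883 ± 0.0233 RPKM under the Nfat5-/- label (mean ± SD, n = 2), with no overlap. Its level rested on few reads, 111 and 128 gene reads for WT and 99 and 92 under the Nfat5-/- label. The fit gave a log2 fold change of -0.46 (SE 0.21, 95% interval -0.96 to 0.04, edgeR adjusted p 0.38), which lay between -0.59 and -0.29 over the alternatives. Introns held 15.3% to 29.3% of its gene reads, against 0% to 1.96% in Cdh1, Cdh3, Fat1, Fat2, Celsr1 and Celsr2. GENCODE places 5 other genes within its span of 1041189 bases, and none of them shares exon bases with it. With exon reads alone, the log2 fold change of Cdh13 was -0.55.

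Fat1, the Fat gene with the most reads, had between 20188 and 24010 gene reads and was 72.2 ± 16.9 RPKM for WT and 73.8 ± 13.2 RPKM under the Nfat5-/- label (mean ± SD, n = 2). The groups overlapped, with a log2 fold change of 0.05 (SE 0.19, 95% interval -0.39 to 0.50, edgeR adjusted p 0.93). The sign was not fixed, since it was -0.17 without WT replicate 2, -0.16 without Nfat5-/- replicate 2 and -0.05 with a correction for exon length. Within a library, Fat1 exceeded Fat2 by 11.9-fold and 9.23-fold for WT and by 22.4-fold and 29.8-fold under the Nfat5-/- label. This ratio holds the lower Fat2 level that chose the gene and is a description.

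Celsr1, which orients hair follicles in the skin, was 11.5 ± 2.26 RPKM for WT and 15.0 ± 2.89 RPKM under the Nfat5-/- label (mean ± SD, n = 2). The groups overlapped slightly, since Nfat5-/- replicate 1 was below WT replicate 1 (12.9 against 13.1 RPKM). The fit gave a log2 fold change of 0.40 (SE 0.18, 95% interval -0.03 to 0.83, edgeR adjusted p 0.377). It was 0.17 without Nfat5-/- replicate 2 and 0.63 without WT replicate 1, so its size rested on which library was kept.

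Celsr2 (ENSMUSG00000068740, chr3:108390851-108415552), a relative of Celsr1 with known roles in ciliated cells and neurons, was 5.35 ± 2.25 RPKM for WT and 4.37 ± 1.09 RPKM under the Nfat5-/- label (mean ± SD, n = 2). WT replicate 1 was the highest library, at 6.95 RPKM, and WT replicate 2 (3.76 RPKM) lay between the libraries labelled Nfat5-/- (3.60 and 5.13 RPKM). The fit gave a log2 fold change of -0.27 (SE 0.29, 95% interval -0.96 to 0.41, edgeR adjusted p 0.727). It turned to 0.25 without WT replicate 1, was -0.02 without Nfat5-/- replicate 1 and was -0.65 without WT replicate 2. Within a library, Celsr1 exceeded Celsr2 by 1.88-fold and 2.63-fold for WT and by 3.59-fold and 3.31-fold under the Nfat5-/- label.

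**Figure D2:**
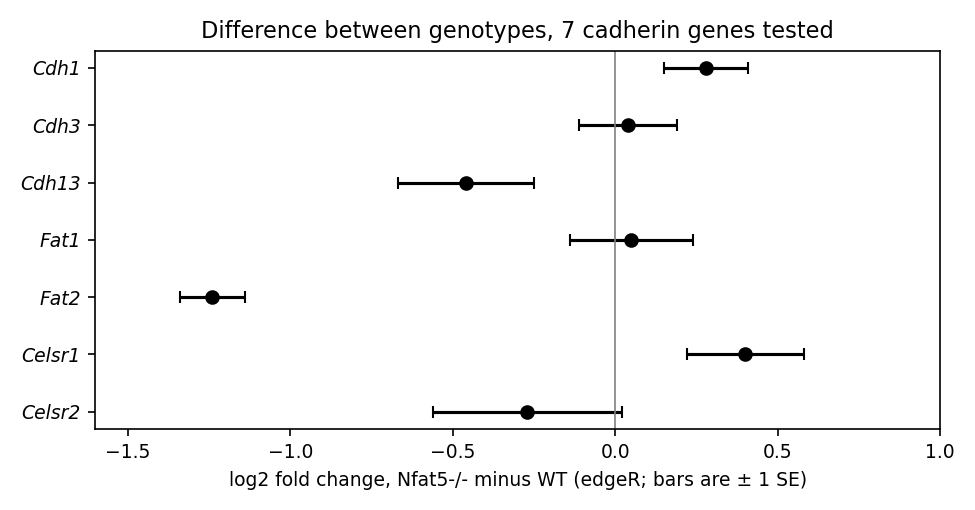
Log2 fold change of the 7 cadherin genes that passed the filter, Nfat5-/- minus WT, from edgeR, with bars of 1 SE (n = 2 libraries per group). Fat2 lies at -1.24, and the other 6 lie between -0.46 (Cdh13) and 0.40 (Celsr1).

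Replicates of a group also differed in a way that did not follow the genotype. Of the 7 cadherin genes tested, 6 (Cdh1, Cdh3, Cdh13, Fat1, Celsr1 and Celsr2) were higher in WT replicate 1 than in WT replicate 2 and higher in Nfat5-/- replicate 2 than in replicate 1. This order held for 21.6% of all genes tested, among them the KC genes Krt14, Itgb4 and Col17a1. For Fat1 the higher libraries of both groups were at 84.2 and 83.2 RPKM and the lower ones at 60.3 and 64.5 RPKM. For Cdh3 they were at 66.2 and 66.5 RPKM against 53.5 and 54.3 RPKM. The higher library was in both groups the shallower one, with 16219445 and 18645422 gene reads against 21612980 and 23494436, and the part of depth in this pattern was not tested. Fat2 differed from this, with 2.88 RPKM in Nfat5-/- replicate 1 and 2.79 RPKM in replicate 2.

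**Figure D3:**
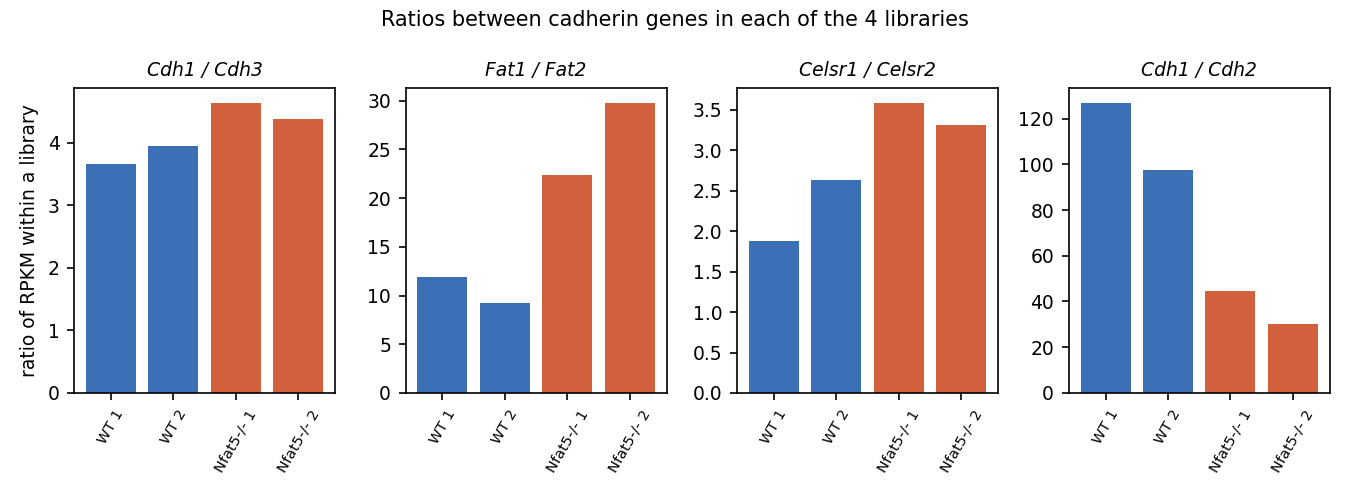
Ratio of the RPKM of a pair of cadherin genes within each library, in WT (blue) and under the Nfat5-/- label (orange), with axes that start at 0 and differ between panels. Fat1 over Fat2 is 9.23 to 11.9 for WT and 22.4 to 29.8 under the Nfat5-/- label, and Cdh1 over Cdh2 is 97.5 to 127 and 30.3 to 44.4.

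Partners of these proteins were described from 7 lists of 53 genes in all, of which 41 passed the filter. Of the 41, 1 gene passed an edgeR adjusted p of 0.05, a share of 2.44%, beside 1.27% of all genes. The median log2 fold change of the 41 was 0.10, beside -0.010 over all genes.

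The gene that passed was Cdh2, N-cadherin, a classical cadherin best known from neural and mesenchymal cells. It had 161 and 243 gene reads for WT and 680 and 926 under the Nfat5-/- label, or 1.92 and 2.17 RPKM against 5.67 and 9.62 RPKM. Both libraries with the Nfat5-/- label were above both WT libraries. Cdh2 rose by 1.91 on the log2 scale (SE 0.26, edgeR adjusted p 0.0252). Without Nfat5-/- replicate 2 the change was 1.45 and missed the threshold (edgeR adjusted p 0.08, the highest of a range from 4.33e-30 over the 13 alternatives). The study picked Cdh2 from these same libraries, and 69.0% of its exon reads were placed at a single site. On uniquely placed exon reads alone its log2 fold change was 1.97 (SE 0.26, edgeR adjusted p 0.0154). Cdh1 remained the far more abundant cadherin, 127-fold and 97.5-fold above Cdh2 for WT and 44.4-fold and 30.3-fold above it under the Nfat5-/- label. Of the other 7 cadherins in that list, Cdh11, a cadherin of mesenchymal cells, was the only one that passed the filter, with 0.927 and 1.41 RPKM for WT and 2.90 and 2.52 RPKM under the Nfat5-/- label. RPKM rests on exon reads, and introns held 61.3% and 50.4% of the Cdh11 gene reads for WT and 28.8% and 29.4% under the Nfat5-/- label. On gene reads the log2 fold change of Cdh11 was 0.56 (SE 0.15, unadjusted p 0.00631, edgeR adjusted p 0.144), and on exon reads it was 1.22 (SE 0.22, edgeR adjusted p 0.0456), so that 2 of 38 partner genes tested on exon reads passed, Cdh2 and Cdh11, beside 1.44% of all genes in that fit. Cdh15, the next by mean RPKM, had 4 and 17 gene reads for WT and 1 and 6 under the Nfat5-/- label.

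Among 13 catenins and other adherens junction partners, all of which were tested, 0 passed the adjusted threshold and the median log2 fold change was 0.22. At an unadjusted p under 0.05 there were 3 of the 13, Vcl, Lima1 and Nectin3, beside 14.6% of all genes. The RPKM of the groups lay apart with higher values under the Nfat5-/- label for 10 of the 13, beside 21.6% of all genes, and with lower values for 1, Ajuba (94.4 and 91.3 against 87.9 and 83.9 RPKM), beside 25% of all genes. One of the 10 was Ctnnd2, with at most 0.0335 RPKM, whose fitted log2 fold change on all gene reads was below 0 (-0.17). The most abundant was Jup, the catenin that binds both cadherins and desmosomal proteins, with 369 and 348 RPKM for WT and 371 and 472 RPKM under the Nfat5-/- label (log2 fold change 0.26, SE 0.14). Ctnnd1, which stabilises cadherins at the membrane, was at 169 and 164 RPKM for WT and 200 and 183 RPKM under the Nfat5-/- label, and 14.9% of its exon reads were placed at a single site. Ctnna1, which links the complex to actin, was at 158 and 170 against 169 and 192 RPKM.

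Of 9 further Fat, Dachsous and Celsr genes and Fat partners, 6 were tested and 0 passed, with log2 fold changes from -0.38 to 0.14. Their RPKM lay apart for 1 of the 6, Scrib, beside 46.5% of all genes. Fat3, Dchs2 and Celsr3 did not pass the filter and had at most 7 gene reads in any library. The most abundant partners were the actin regulators Vasp (134 and 170 RPKM in WT, 170 and 160 RPKM under the Nfat5-/- label) and Enah (31.6 and 32.7 against 26.0 and 33.7 RPKM), and Amotl1, a partner of Fat4 (37.5 and 39.0 against 34.1 and 42.7 RPKM). The groups overlapped for each of these. Scrib alone of the 6 reached an unadjusted p under 0.05, beside 14.6% of all genes. It was at 25.9 and 19.1 RPKM for WT and 17.2 and 17.0 RPKM under the Nfat5-/- label (edgeR adjusted p 0.323).

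Among the 11 core planar cell polarity genes, 0 passed and the log2 fold changes ran from -0.22 to 0.35, with a median of 0.01. Their RPKM lay apart with higher values under the Nfat5-/- label for 2 and with lower values for 3 of the 11, beside 21.6% and 25% of all genes. Ptk7, a co-receptor of this system, was the most abundant at 59 and 48.1 RPKM for WT and 45.5 and 48.7 RPKM under the Nfat5-/- label. The adaptor Dvl1 was at 25.6 and 25.5 against 22.6 and 20.9 RPKM, and the receptor Fzd6 at 15.1 and 17.1 against 14.2 and 15.1 RPKM. At an unadjusted p under 0.05 there was 1 of the 11, beside 14.6% of all genes, Dvl3 (log2 fold change 0.35, SE 0.12, edgeR adjusted p 0.255).

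Of 6 repressors of Cdh1 transcription, 4 were tested and 0 passed, also none at an unadjusted p under 0.05. The RPKM of the 4 lay apart with higher values under the Nfat5-/- label, beside 21.6% of all genes, and 3 of them (Zeb1, Zeb2 and Twist2) had at most 27 gene reads in a library. Snai2 was by far the most abundant, at 28.5 and 28.0 RPKM for WT and 30.3 and 31.1 RPKM under the Nfat5-/- label (log2 fold change 0.14, SE 0.10, edgeR adjusted p 0.592). Snai1 and Twist1 did not pass the filter and had at most 5 gene reads in any library. Of the 5 enzymes that cut cadherins, 0 passed, also none at an unadjusted p under 0.05, with log2 fold changes from -0.11 to 0.17. Their RPKM lay apart for 1 of the 5, Adam10, beside 46.5% of all genes. Among them, the sheddase Adam10 was at 22.9 and 24.0 RPKM for WT and 24.3 and 25.1 RPKM under the Nfat5-/- label, and the protease Furin at 36.7 and 42.9 against 36.2 and 44.9 RPKM. Adipoq, which encodes the Cdh13 ligand adiponectin, had 2 gene reads in 1 library and 0 in the other 3.

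**Figure D4:**
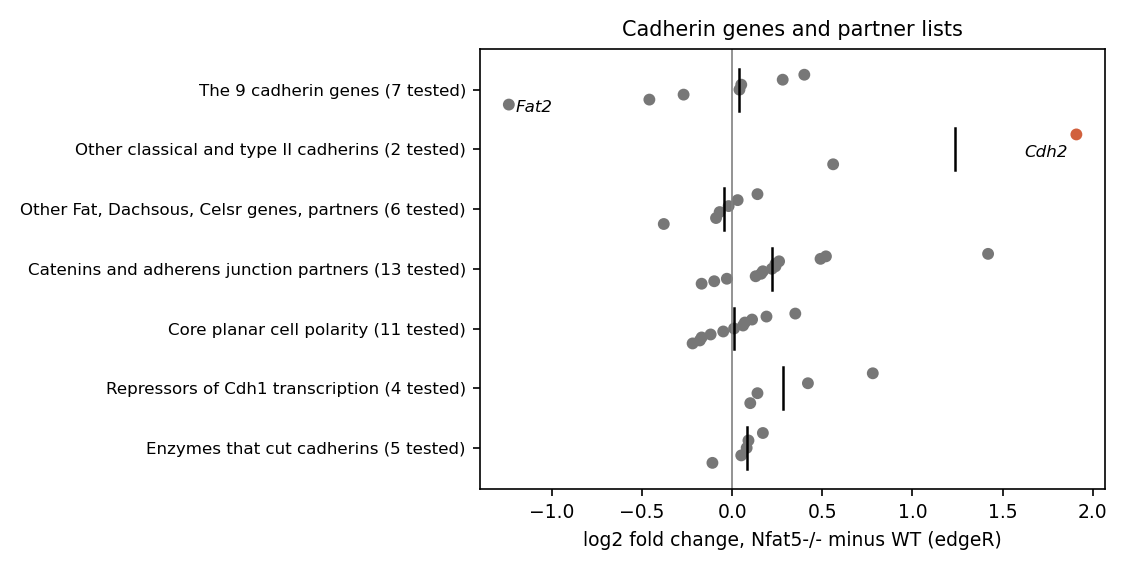
Log2 fold change (Nfat5-/- minus WT, edgeR) of the tested cadherin genes and of the tested genes of 6 partner lists, with a vertical line at the median of each. Orange marks the partner gene past an adjusted p of 0.05, Cdh2 at 1.91, and Fat2, marked by name at -1.24, is shown without a test.

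Markers of other cell types that such a culture could hold were examined beside these values. Smooth muscle markers summed to 184 and 151 RPKM for WT and 518 and 819 RPKM under the Nfat5-/- label. These sums were mostly Acta2, at 164 and 134 RPKM for WT and 450 and 723 RPKM under the Nfat5-/- label. Of the 4 tested, 4 rose past the adjusted threshold (edgeR log2 fold change 2.00 to 4.71). Cnn1 reached at most 2.8 RPKM and Myh11 at most 0.294 RPKM, and Des had 1 gene read over all libraries. Melanocyte markers summed to 7.29 and 6.99 RPKM for WT and 2.04 and 2.89 RPKM under the Nfat5-/- label, with 1 of 4 tested, Tyrp1, past the threshold. The 4 tested melanocyte markers were lower without overlap, beside 25% of all genes, and 3 of the 4, Tyrp1, Pmel (log2 fold change -1.30) and Dct (-1.65), reached an unadjusted p under 0.05, beside 14.6% of all genes. Fibroblast markers summed to 0.653 and 0.539 RPKM for WT and 0.934 and 1.85 RPKM under the Nfat5-/- label. Endothelial markers summed to 0.777 and 0.735 against 0.555 and 0.687 RPKM, and immune markers, mostly Cd68, to between 14.8 and 21.5 RPKM. In these 3 lists 0 of 3, 0 of 2 and 0 of 2 tested genes passed the threshold, and only the fibroblast marker Thy1 reached an unadjusted p under 0.05. Of these lists, Col1a1 (34 to 91 gene reads), Pdgfra (14 to 38), Kdr (64 to 66) and Pecam1 (20 to 39) were detected at low levels in each library, while Lum had 1 gene read in all and Cdh5 at most 2 in a library. The markers Krt1, Krt10, Ivl, Lor and Flg of suprabasal KCs summed to 5.51 and 4.97 RPKM for WT and 7.31 and 10.5 RPKM under the Nfat5-/- label. The sums were led by Lor (2.54 and 2.59 against 3.94 and 6.07 RPKM), and 0 of 5 passed the adjusted threshold. Of the 5, Krt1 (at most 38 gene reads in a library) and Lor reached an unadjusted p under 0.05, beside 14.6% of all genes. Krt10 went the other way without overlap (0.854 and 0.684 against 0.55 and 0.52 RPKM). Flg had a log2 fold change of 0.06 on gene reads. The sums of the smooth muscle, fibroblast and suprabasal markers were higher under the Nfat5-/- label, as Cdh2 was. Those of the melanocyte and endothelial markers were lower, as Fat2 was. The part of any of these cell types in the differences of Cdh2 and Fat2 was not tested.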

How the data were processed

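Per the labels and the study's methods, polyadenylated RNA was sequenced as single reads, trimmed for adapters and aligned to GRCm38 with the CLC Genomics Workbench at default RNA-Seq settings. The authors deposited 1 table per library with raw read counts (gene, exon, unique exon, intron and junction reads) and RPKM values. No strand setting is stated.

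Groups and replicate numbers came from the sample titles. The 9 genes and all lists were chosen with earlier results of these data known. Named partners were those past the threshold and the 3 most abundant of each list, of which 1 is not reported here. Others named at an unadjusted p under 0.05 or for their reads (Vcl, Lima1, Nectin3, Ctnnd2, Ajuba, Scrib, Dvl3) were chosen after their values were seen. Gene reads of the 4 libraries (16219445 to 23494436 each, with 3 reads equal to 0.128 to 0.185 CPM, for counting error only) were filtered with filterByExpr, scaled by TMM and tested with the edgeR 4.0.16 quasi-likelihood method in R 4.3.3, with genotype as the sole term and Benjamini-Hochberg adjustment over 12614 genes. P-values are two-sided. SEs were derived from the F statistic, and 95% intervals use the t distribution of the fit. Replicates differed by more than sampling noise (chi-square per degree of freedom 16.7 and 17.3), so none was treated as a library deposited more than once. Alternatives were DESeq2 1.42.0, limma-trend (limma 3.58.1, log2 of RPKM plus 1 or 0.1), other counts, scaling and filters, a length correction, a replicate block and left-out libraries. On simulated counts the procedure recovered planted changes in size and direction, but false calls exceeded the nominal share, so adjusted p-values near the threshold are to be read with caution. Changes as small as those fitted for the tested genes of the 9 other than Fat2 were not planted, so the simulation does not show whether such changes would be found. Protein sequences were not used here.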

Additional observations from a re-analysis of the deposited data

How the results depend on the processing

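Of the 6 genes other than Fat2 that were tested, 0 passed the adjusted threshold under the alternatives run, except that without a filter on low counts 1 did (Celsr1, log2 fold change 0.40, edgeR adjusted p 0.0276, from 0.0276 to 0.929 over its alternatives). Cdh1, Cdh13 and Celsr1 kept their direction under all 13 alternatives, while Cdh3, Fat1 and Celsr2 did not. Fat2 also kept its direction, but its lower level in these same libraries chose it, so this is a description only. The number of genes called over all genes moved from 160 to 416 with DESeq2 and to 1137 without a filter, and lay between 16 and 478 with a library left out: it was 16 without Nfat5-/- replicate 2, 31 without Nfat5-/- replicate 1, 268 without WT replicate 1 and 478 without WT replicate 2. The cause was not tested. With the replicate block 132 genes were called, and it changed no call among the cadherin genes. Deviations of same-numbered libraries from their group means had a correlation of -0.0652 over genes, and the numbers were not taken as pairs. Counting total gene reads in place of exon reads raised Cdh13 to 1.65 RPKM for WT and to 1.18 RPKM under the Nfat5-/- label. Fat4 and Dchs1, with 8 and 4 gene reads over the 4 libraries, had too few reads to pass the filter.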
